A study of Bos taurus with 6 samples.

Results

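The miR-23, miR-27 and miR-24 genes lie in 2 paralogous clusters, a and b, and their mature products were examined in small RNA libraries of cultured bovine granulosa cells, the somatic cells that line the ovarian follicle and nourish the oocyte. Members were all rows of the deposited tables whose name is bta-miR-23a, 23b, 27a, 27b or 24, with or without an arm suffix. The rule goes by name and not by values, though it was set with earlier results of these data known. This gave 8 of 1028 listed bovine miRNAs: bta-miR-23a, bta-miR-27a-3p and bta-miR-27a-5p of the a cluster, bta-miR-23b-3p, bta-miR-23b-5p and bta-miR-27b of the b cluster, and bta-miR-24-3p and bta-miR-24, whose name does not tell the clusters apart. A suffix of 3p or 5p names the arm of the hairpin precursor from which the mature miRNA is cut.

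The granulosa cells came from small antral follicles of 3 to 6 mm on slaughterhouse ovaries and were cultured for 24 h at 37 °C. The 3 control libraries came from cells left at 37 °C for a further 24 h, and the 3 heat stress (HS) libraries from cells moved to 42 °C for the same time, both in medium with exosome-depleted serum. Libraries are labelled as replicates 1, 2 and 3 of their group, and the series describes them as biological replicates. Whether a number stands for separate animals, pools or cultures is not given in the sources used here, so the p-values measure the spread between these libraries.

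In mammals each cluster is transcribed as a common precursor that holds a miR-23, a miR-27 and a miR-24 hairpin in that order. The miR-23 paralogs of the 2 clusters share their seed, the bases that select targets, and so do the miR-27 paralogs, with a difference of a single base outside it, while both clusters yield the same miR-24-3p. miR-23 is known for repressing glutaminase downstream of MYC, miR-27 for restraining adipocyte formation and lipid metabolism genes such as PPARG, and miR-24 for repressing cell cycle and DNA damage response genes such as E2F2 and H2AX. In the RefSeq annotation of the later assembly ARS-UCD2.0, MIR23A, MIR27A and MIR24-2 are consecutive genes that overlap the protein-coding locus LOC132345691. MIR23B, MIR27B and MIR24-1 are likewise consecutive and overlap AOPEP, which encodes aminopeptidase O.

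The libraries held between 2076239 and 4590971 recovered reads, control replicate 1 being the shallowest, and values are given as normalized CPM, in which read numbers are made comparable between libraries of unequal depth. With molecular identifiers a read stands for a molecule, and mature miRNAs have nearly the same length, so levels of different miRNAs were set side by side without division by length. Adapter ligation differs between sequences, so such levels are descriptions. The tables hold miRNAs only, and none of them defines granulosa cells. Marker miRNAs of other cells were present in both groups. The summed level of the 4 leukocyte rows was 700.2 to 842.7 in control and 613.9 to 749.2 in HS cells, and that of the 6 stromal rows 1327 to 2089 and 2012 to 2201. For the 2 endothelial rows it was 228.1 to 351.6 and 130.8 to 265, for the 6 epithelial rows 62 to 96.9 and 51.9 to 88.9, and for the 3 red blood cell rows 12.5 to 52.7 and 20.9 to 62.7. No row of these lists was at 0 in every library, but some were low. A mean of at least 10 normalized CPM was reached by 4 of 4 leukocyte, 2 of 2 endothelial and 4 of 6 stromal rows. For the epithelial list it was 2 of 6 rows, and for the red blood cell list 1 of 3. The part of these cells in the results below was not tested. In such bulk RNA, fewer cells of a type and less RNA per cell cannot be told apart.

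Products of both clusters were present in granulosa cells, and the guide arms were abundant. The 8 members together took 2.93% of the reads on average, between 2.4% and 3.47% in single libraries. By mean level over the 6 libraries, bta-miR-27b ranked 19 of 1028, bta-miR-24-3p 24, bta-miR-23b-3p 37, bta-miR-23a 38 and bta-miR-27a-3p 70. The remaining arms were lower, with bta-miR-27a-5p at rank 161, bta-miR-23b-5p at 202 and bta-miR-24 at 667.

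The miR-23 paralogs were present at nearly the same level. Listed by replicate 1, 2 and 3, here and throughout, bta-miR-23a measured 3869, 3744 and 4311 normalized CPM in the control libraries, and 3552, 4495 and 4524 under HS. bta-miR-23b-3p measured 4239, 3751 and 5071 without and 3480, 4443 and 4958 with HS. The ranges of the paralogs overlapped, and bta-miR-23a was the lower of the pair in 4 of 6 libraries. These neighbours in rank did not differ beyond the spread between libraries.

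The miR-27 paralogs were far apart. bta-miR-27a-3p measured 983.8, 1403 and 1303 normalized CPM at 37 °C, and 1248, 1354 and 1640.0 at 42 °C. bta-miR-27b measured 7680, 12026 and 12026 at 37 °C, and 8870, 9538 and 13087 at 42 °C, and its lowest library lay above the highest of bta-miR-27a-3p. In both groups replicate 1 was the lowest library for either paralog, and it was also the shallowest of its group, with 2076239 reads in control and 3123331 in HS cells. Any part of depth in this was not tested.

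bta-miR-24-3p, which both clusters yield, measured 8478, 8122 and 9748 normalized CPM in the control libraries, against 7622, 9241 and 9525 under HS. The lowest and the highest library thus fell in different groups. The range of bta-miR-24-3p overlapped that of bta-miR-27b, with averages of 8789 and 10538 normalized CPM. Compared within libraries, bta-miR-27b was the higher of these leading members except in control replicate 1, at 7680 against 8478. The row named bta-miR-24 was seen in a control library once, in replicate 2 with 1 read, and in an HS library once, in replicate 3 with 2 reads. These are under the floor of 3 reads, which corresponds to 0.639 to 1.465 normalized CPM depending on the library, so no fold change is given for it. The floor covers counting error only.

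**Figure D1:**
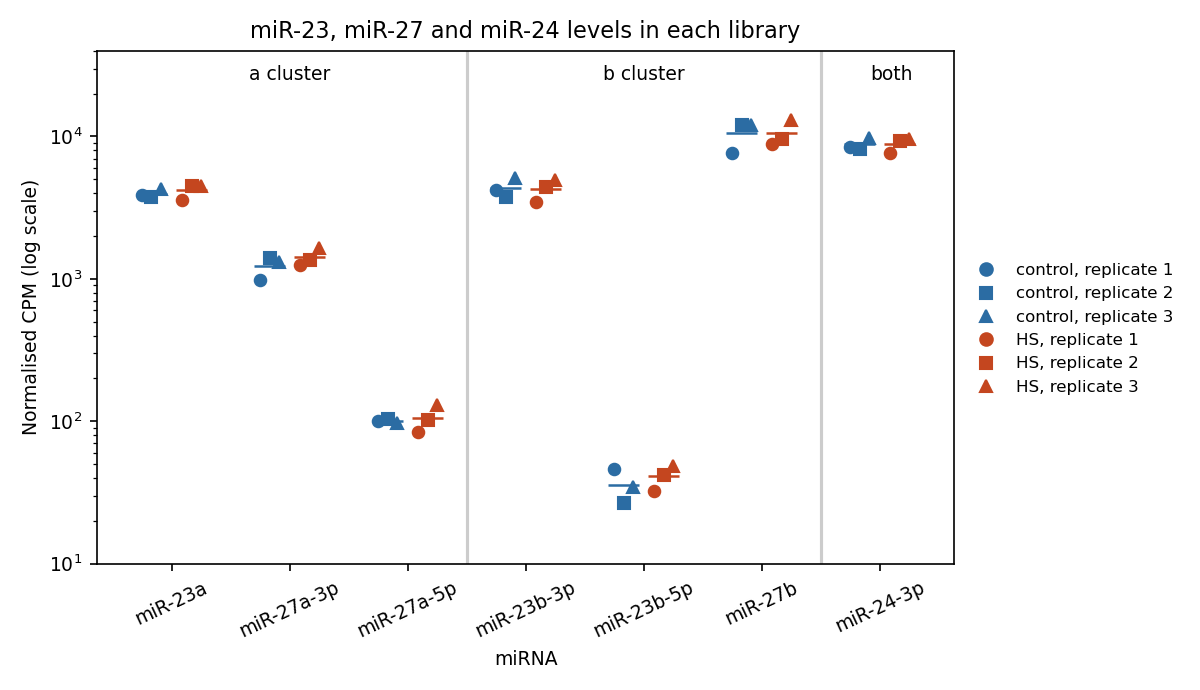
Normalized CPM (log axis) of 7 of the 8 members in each library, grouped by cluster, with a symbol per replicate and a horizontal bar at each group mean; bta-miR-24, with 3 reads in all libraries together, is left out. miR-23a and miR-23b-3p sit at the same height, miR-27b lies above miR-27a-3p in every library, and control and HS libraries overlap for each miRNA.

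The passenger arms were low beside their partners. bta-miR-27a-5p measured 99.6, 103 and 97.5 normalized CPM at 37 °C, and 83.9, 101.4 and 129 at 42 °C, so the HS libraries spanned the control ones. bta-miR-23b-5p measured 45.9, 26.7 and 34.3 at 37 °C, and 32.5, 41.9 and 48.5 at 42 °C, from 94 to 228 reads, and here too the groups overlapped. Counting error alone was 6.62% to 10.3% of the bta-miR-23b-5p values, while for bta-miR-27b it did not exceed 0.797%.

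The 3p arm made up most of both hairpins whose arms are listed separately. For miR-27a the 3p share of both arms was 90.8%, 93.2% and 93.0% at 37 °C, against 93.7%, 93.0% and 92.7% at 42 °C. The 95% Wilson interval of the lowest, control replicate 1, ran from 89.5% to 91.9% and did not reach the other libraries' shares. For miR-23b the 3p share was 98.9%, 99.3% and 99.3% at 37 °C, against 99.1%, 99.1% and 99.0% at 42 °C. The passenger arm was thus a larger part of the miR-27a hairpin than of the miR-23b hairpin in every library. Control and HS libraries overlapped in both shares. The difference was 0.81 percentage points for miR-27a (SE 0.818, exact two-sided permutation test, p = 0.6) and -0.126 points for miR-23b (SE 0.128, exact permutation p = 0.4). Without control replicate 1 the differences were 0.047 and -0.254 points, so that for miR-27a rested on this library, and for miR-23b it was nearest 0 without control replicate 3, at -0.054 points. With 3 libraries against 3 the smallest p this test can give is 0.1.

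To compare the clusters, the a cluster was summed as bta-miR-23a, bta-miR-27a-3p and bta-miR-27a-5p, and the b cluster as bta-miR-23b-3p, bta-miR-23b-5p and bta-miR-27b. The a cluster sum was 4952, 5250.2 and 5711 normalized CPM at 37 °C, against 4884, 5950.3 and 6293 at 42 °C. The b cluster sum was 11965, 15804 and 17131 at 37 °C, against 12382, 14023 and 18093 at 42 °C. The b cluster was higher in 6 of 6 libraries, by 2.36 to 3.01 times. The mean log2 ratio of a to b averaged -1.48 ± 0.182 in the control group, and -1.37 ± 0.145 in the HS group (SD, n = 3 each).

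This excess of the b cluster lay in miR-27. bta-miR-23a made up 47.7%, 49.95% and 46.0% of the reads of the miR-23 pair at 37 °C, against 50.5%, 50.3% and 47.7% at 42 °C. By contrast, bta-miR-27a-3p made up 11.4%, 10.4% and 9.78% of the miR-27 pair at 37 °C, against 12.3%, 12.4% and 11.1% at 42 °C. On the linear scale bta-miR-27b was 7.04 to 9.23 times bta-miR-27a-3p, whereas bta-miR-23b-3p was 0.98 to 1.18 times bta-miR-23a. Paralogs that differ by a single base can exchange reads where mapping tolerates a mismatch, as it did here, and how such reads were assigned is not given in the sources used here, so these shares are uncertain to that extent.

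**Figure D2:**
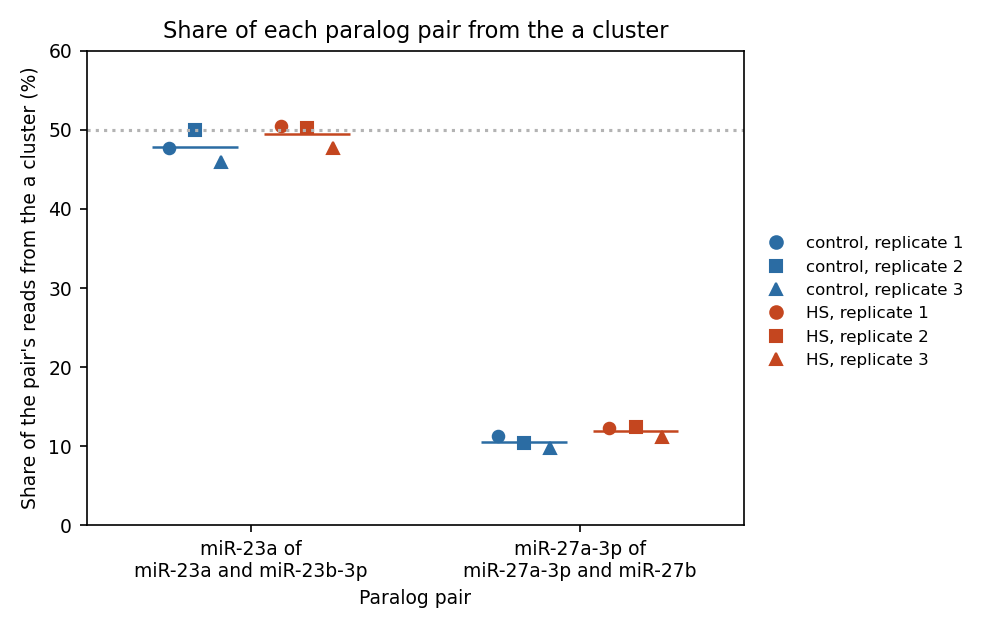
Percent of the reads of each paralog pair that were assigned to the a cluster member, per library, with 95% Wilson intervals as thin vertical bars (mostly hidden by the symbols) and group means as horizontal bars; the dotted line marks 50%. The miR-23 pair lies between 46.0% and 50.5%, and the miR-27 pair between 9.78% and 12.4%.

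Within the clusters the order of miR-27 and miR-23 was opposite. In the a cluster bta-miR-27a-3p was below bta-miR-23a in 6 of 6 libraries, with ratios of 0.254, 0.375 and 0.302 at 37 °C, against 0.351, 0.301 and 0.362 at 42 °C. In the b cluster bta-miR-27b was above bta-miR-23b-3p in 6 of 6 libraries, with ratios of 1.81, 3.21 and 2.37 at 37 °C, against 2.55, 2.15 and 2.64 at 42 °C. bta-miR-24-3p exceeded the a cluster sum in every library, by 1.51 to 1.71 times, and was below the b cluster sum in every library, at 0.514 to 0.709 times.

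Control and HS libraries overlapped in each of these ratios, and an exact test of 3 against 3 cannot reach a p of 0.05, so the tests do not show that the ratios were stable. The log2 ratio of a to b cluster was higher in HS cells by 0.115 (SE 0.134, exact permutation p = 0.5), and the groups overlapped. This difference was 0.22 without control replicate 1 and 0.05 without HS replicate 2, the highest and lowest values when a library was omitted. For bta-miR-27a-3p against bta-miR-27b the log2 ratio was -2.96, -3.10 and -3.21 at 37 °C, against -2.83, -2.82 and -2.996 at 42 °C. This difference of 0.21 (SE 0.091, exact permutation p = 0.2) was the largest among the paralog and cluster ratios, and the groups overlapped, since control replicate 1 lay above HS replicate 3. It exceeded the SD within either group, 0.121 in control and 0.1 in HS cells. For bta-miR-23a against bta-miR-23b-3p the difference was 0.094 (SE 0.085, exact permutation p = 0.3). With miR-23 and miR-27 weighted alike, the mean of both paralog log2 ratios was higher in HS cells by 0.152 (SE 0.079, exact permutation p = 0.3), also above the SD within either group, 0.098 in control and 0.095 in HS cells. Over the 11 exact tests of ratios and arm shares the p-values ran from 0.2 to 1, and from 0.786 to 1 after Benjamini-Hochberg adjustment.

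**Figure D3:**
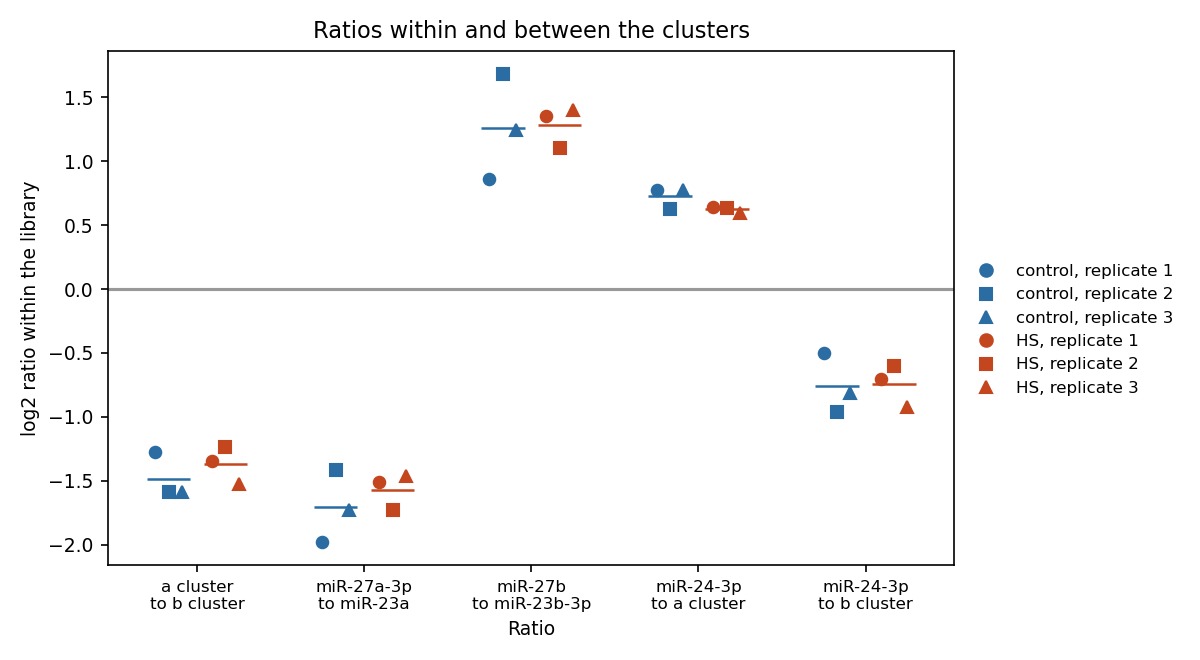
The log2 ratio of summed or single miRNA levels in each library, with group means as horizontal bars, for the a against the b cluster, miR-27 against miR-23 in each cluster, and miR-24-3p against each cluster. Each ratio keeps its side of 0 in all 6 libraries, and control and HS libraries overlap in all 5 ratios.

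To ask whether the members responded to HS, each was read from a limma fit over the 365 miRNAs that passed the filter on low reads. Of the 8 members, 7 passed it and bta-miR-24 did not. The study's thresholds were an adjusted p no higher than 0.2 together with a log2 fold change of 1 or more in either direction. By these 0 of the 7 were called, where 3.01% of all tested miRNAs were. At an adjusted p under 0.05 it was again 0 of 7, against 2.19% of all tested. None of the 7 had an unadjusted p under 0.05 (14.5% of all tested), and for none were the groups separate (20.0% of all tested). The edgeR quasi-likelihood test and the DESeq2 Wald test on recovered reads also called 0 of the 7, with 0 at an unadjusted p under 0.05. Over all tested miRNAs these tests called 2.74% and 2.47% by the study's thresholds, 1.92% and 5.48% at an adjusted p under 0.05, and 13.2% and 13.4% at an unadjusted p under 0.05.

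The log2 estimates lay between -0.024 and 0.21, and their intervals bound the change that these libraries could hide. bta-miR-23a averaged 3975 ± 298 normalized CPM at 37 °C and 4190.3 ± 553 at 42 °C (SD, n = 3 each). Its log2 fold change, HS over control, was 0.07 with an SE of 0.133 (limma adjusted p = 0.933). Its 95% interval ran from -0.25 to 0.39, or 0.843 to 1.31 times on the linear scale. bta-miR-23b-3p averaged 4354 ± 667 and 4294 ± 750 (log2 fold change -0.024, 95% interval -0.44 to 0.39, limma adjusted p = 0.969).

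For miR-27 the widest bounds were those of bta-miR-27b, whose libraries within a group differed most among the abundant members. It averaged 10577 ± 2509 at 37 °C and 10498 ± 2267 at 42 °C, and the log2 fold change was -0.0015 with a 95% interval from -0.53 to 0.53 (limma adjusted p = 0.997). bta-miR-27a-3p averaged 1230 ± 219 and 1414 ± 203, and its log2 fold change of 0.21 with an SE of 0.18 had the lowest p of the members (limma adjusted p = 0.726). Without control replicate 1, its lowest library, the log2 fold change was 0.055. Its interval from -0.22 to 0.63 included no change and reached 1.55 times.

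bta-miR-24-3p had the narrowest interval. It averaged 8783 ± 855 at 37 °C and 8796 ± 1026 at 42 °C, and the log2 fold change was -0.0003 with a 95% interval from -0.30 to 0.30, or 0.812 to 1.23 times on the linear scale (limma adjusted p = 0.998). The passenger arms bta-miR-27a-5p and bta-miR-23b-5p had log2 fold changes of 0.045 and 0.21 (limma adjusted p = 0.959 and 0.839), with intervals from -0.41 to 0.50 and from -0.40 to 0.82. Without HS replicate 3 the change of bta-miR-27a-5p was -0.11, and that of bta-miR-23b-5p was 0.41 without control replicate 1 and 0.027 without control replicate 2. No interval reached a log2 change of 1 in size. Summed by family, which removes any exchange of reads between paralogs, the log2 fold change was 0.021 for miR-23 and 0.022 for miR-27 (limma adjusted p = 0.969 for each).

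**Figure D4:**
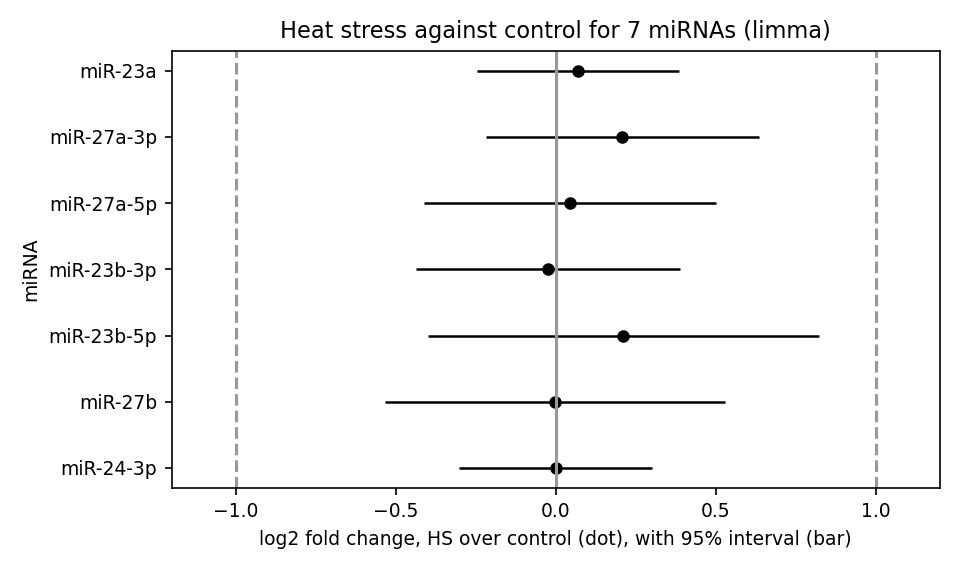
The log2 fold change of HS over control for the 7 members tested (dot, limma on log2 of normalized CPM plus 1) with its 95% interval (bar); the solid line marks no change and the dashed lines a log2 change of 1 in size. All intervals include 0, and the widest reaches 0.82, for miR-23b-5p.

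The median log2 fold change of the 7 members was 0.045 and that of all 365 tested miRNAs -0.0015, and the median sizes were 0.045 and 0.2. In the 77 tested miRNAs with a mean above 1000 normalized CPM, a level that 5 of the members share, the median size was 0.104. The SD of log2 values between libraries of a group, pooled over groups, was 0.338 for bta-miR-27b, 0.241 for bta-miR-23b-3p and 0.238 for bta-miR-27a-3p, each above the median of 0.188 in these 77. It was 0.159 for bta-miR-23a and 0.157 for bta-miR-24-3p, both below that median.

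Across the 6 libraries, the sums of the clusters were also compared with the 358 other tested miRNAs. The log2 sum of the a cluster was most like bta-miR-142-5p (Pearson r = 0.905), bta-miR-2285t (r = 0.903) and bta-miR-199b (r = 0.892). Of these, bta-miR-142-5p is 1 of the 4 rows of the leukocyte list above, the most abundant, and bta-miR-199b 1 of the 6 rows of the stromal list. No other row of either list was among the 3 most like the a cluster. The part of such cells in the a cluster level was not tested. That of the b cluster was most like bta-miR-146b (r = 0.962), bta-miR-96 (r = 0.947) and bta-miR-182 (r = 0.931). These values describe 6 libraries of unequal depth, in which all miRNAs of a library share its depth and scaling factor, and were picked as the highest of many.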

How the data were processed

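Small RNA of bovine granulosa cells was sequenced in 3 control and 3 HS libraries, made from 100 ng of total RNA with adapters that carry unique molecular identifiers and 16 PCR cycles. The authors extracted adapters and identifiers with cutadapt 1.11, collapsed reads with the same identifier, mapped them with Bowtie2 2.2.2 (build UMD3.1 per the labels, a single mismatch tolerated), annotated them with miRBase and scaled them in edgeR with TMM factors (trimmed mean of M-values). The deposited signal is TMM-normalized CPM per miRNA and library, not counts.

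In each library 100% of the values were whole multiples of a step (tolerance 0.01 of a read), which gave the reads per miRNA. The test was limma 3.58.1 (trended eBayes, group only) in R 4.3.3 on log2(value + 1) after filterByExpr of edgeR 4.0.16 on recovered reads, with Benjamini-Hochberg adjustment over all miRNAs tested. Such fold changes understate those of low miRNAs. Replicates of a group differed beyond sampling noise (chi-square per degree of freedom 84.3 to 431). Ratios and shares were tested by exact two-sided permutation with scipy 1.17.1, and Wilson intervals cover counting error only. Alternatives were the replicate block, edgeR quasi-likelihood, DESeq2 1.42.0, other scalings, filters and pseudocounts, summed paralogs and the omission of each library. On simulated reads of the HS against control design, 358 miRNAs were tested. Of 63 simulated 1.5-fold changes 69.8%, and of 61 2-fold changes 88.5%, reached an adjusted p no higher than 0.2. With 72 more changed 4-fold, far more miRNAs changed than the 3.01% called in the real libraries. An adjusted p is reached more easily when many miRNAs change, so these rates can overstate what could be detected among the members.

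All members were named by rule, with the 3 miRNAs most like each cluster. Members and lists were chosen with earlier results of these data known. All 8 member names matched a hairpin of the RefSeq annotation (ARS-UCD2.0), which is not the mapped assembly, so no positions are given. Sequences of the miRNAs were not used here, and other miRNAs with the same seed were not listed for that reason. Replicate numbers were checked as pairs: deviations from the group means correlated at 0.421, -0.117 and 0.616 across miRNAs for replicates 1, 2 and 3. Between unlike numbers the correlations ran from -0.64 to 0.29, so replicates 1 and 3 matched best with their own number and replicate 2 did not. This check does not decide whether the numbers are pairs. The main fit did not use them, and the replicate block is given as an alternative.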

Additional observations from a re-analysis of the deposited data

How the results depend on the processing

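The number of members called, 0 at either threshold, was 0 under each of the 18 alternatives, and the lowest adjusted p of a member under any of them was 0.418, for bta-miR-23b-5p without control replicate 1. With the replicate block in limma the number stayed at 0 and the lowest adjusted p was 0.511. For the ratio of a to b cluster the differences within replicate numbers gave the same mean of 0.115 (exact sign-flip test, p = 0.75, smallest possible 0.25), and the block changed no call. Within replicate numbers the differences were positive in 3 of 3 for miR-23a to miR-23b-3p (0.16, 0.019 and 0.10), for miR-27a-3p to miR-27b (0.14, 0.28 and 0.21) and for the mean of both (0.149, 0.151 and 0.156), each at the smallest possible p of 0.25 (exact sign-flip test). The level of this log2 ratio, -1.42 over all libraries, was -0.076 for miR-23 alone and -2.985 for miR-27 alone. Of 122 comparisons of a member's log2 fold change under an alternative, 107 kept their sign and 15 changed it, none of them past a threshold. Upper quartile factors, which moved the median of all tested miRNAs to -0.18, put bta-miR-23a at -0.12 and bta-miR-27a-5p at -0.14. DESeq2 gave 0.017 for bta-miR-24-3p and 0.0076 for bta-miR-27b, and DESeq2 size factors in limma 0.022 and 0.021. When each library was omitted in turn, log2 fold changes ran from -0.14 to 0.12 for bta-miR-23b-3p, from -0.061 to 0.10 for bta-miR-24-3p, from -0.11 to 0.19 for bta-miR-27a-5p and from -0.22 to 0.11 for bta-miR-27b. For bta-miR-27a-3p they ran from 0.055 without control replicate 1 to 0.31 without control replicate 2, for bta-miR-23b-5p from 0.027 without control replicate 2 to 0.41 without control replicate 1, and for bta-miR-23a from 0.010 without HS replicate 3 to 0.18 without HS replicate 1. The 3p share difference of miR-27a ran from 0.047 to 1.22 points and that of miR-23b from -0.254 to -0.054 points. The cause was not tested. Depth limits bta-miR-24, with at most 2 reads in a library, and adds a counting error of up to 10.3% to bta-miR-23b-5p.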

Other observations

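The ratio of miR-27 to miR-23 ordered the 6 libraries identically in both clusters. In the a cluster (bta-miR-27a-3p to bta-miR-23a) the log2 ratio was lowest in control replicate 1 at -1.97, followed by HS replicate 2 at -1.73 and control replicate 3 at -1.73, and highest in control replicate 2 at -1.42. In the b cluster (bta-miR-27b to bta-miR-23b-3p) these libraries were at 0.858, 1.10, 1.25 and 1.68, again from lowest to highest. Pearson's r was 0.944 and Spearman's rho 1 (n = 6). Without control replicates 1 and 2, the libraries farthest from the median, r was 0.90 over 4 libraries. The other relation computed, a against b paralog in miR-23 and in miR-27, gave r = 0.721 and rho = 0.771 over the same libraries, and r = 0.207 without the 2 farthest libraries. Both relations were chosen among the ratios after the values were seen, so these coefficients are given as descriptions with no p, groups of 3 libraries are too small to repeat them within a group, and the part of reads exchanged between paralogs was not tested.

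In the RefSeq annotation (ARS-UCD2.0) the gene next to MIR23B on its far side from MIR27B is MIR2475, which also overlaps AOPEP. bta-miR-2475 was counted at 10, 16 and 13 reads at 37 °C, against 3, 7 and 4 at 42 °C (log2 fold change -1.17, SE 0.262, limma adjusted p = 0.0987, 0.164 with the replicate block, and 0.0641 to 0.369 over all alternatives). The b cluster members bta-miR-23b-3p and bta-miR-27b, within the same annotated gene, had log2 fold changes of -0.024 and -0.0015. The difference between these changes was not tested. The change of bta-miR-2475 is understated beside them, since 1 was added to its values of 0.851 to 4.88 normalized CPM before the log. The paper lists bta-miR-2475 among the miRNAs that were downregulated under HS. It was chosen here after its values were seen, and its HS counts are close to the floor of 3 reads.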
